A study of Oryza sativa Japonica Group with 18 samples.

Results

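A small group of root transcripts in rice had a higher mean signal in K+-starved than in K+-fed seedlings at 3 d and a ratio near 1 at an earlier and a later harvest. The 37 probe sets described here, of 57194 on the array, were chosen by their measured LK/CK ratios, where LK stands for roots without K+ and CK for roots with K+. At 3 d the mean LK signal was at least 1.4 times the mean CK signal, every LK array lay above every CK array, and the LK mean was 100 or more. At 6 h and at 5 d the ratio of the means lay between 0.83 and 1.2. The LK/CK values at these 3 times are therefore given as a description, with no test. The plants were 2-week-old seedlings of the japonica cultivar Nipponbare grown in nutrient solution. CK seedlings were given the full solution and LK seedlings went into the same solution with K2SO4 left out, and roots of both were taken 6 h, 3 d and 5 d later. Each of the 6 groups had 3 biological replicates, each replicate was RNA pooled from 5 seedlings and each was hybridised to 1 Affymetrix Rice Genome Array, which makes 18 arrays. CK and LK roots were collected at the same times, while time after transfer, seedling age and time of day cannot be told apart between the harvests.

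Plants take up K+ from the soil through channels and transporters of the root, and much of it is stored in the vacuole. Roots that lose their K+ supply are known to change the expression of K+ transporters, kinases of calcium signalling and genes of several hormone and nutrient pathways. Most members have no gene name, and the 5 that have one come from unconnected parts of metabolism. OsNDPK1 is a nucleoside diphosphate kinase, an enzyme that passes phosphate from ATP to other nucleoside diphosphates. PDC2 is a pyruvate decarboxylase, which starts ethanol fermentation by turning pyruvate into acetaldehyde. OsAAH is an allantoate amidohydrolase, an enzyme that frees ammonium from the breakdown products of purines. MHX1 is named after a vacuolar exchanger of Arabidopsis that carries magnesium and zinc ions against protons. The plastid gene atpI encodes a membrane subunit of the chloroplast ATP synthase.

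Signals are given on the linear scale of the table, in arbitrary units. Array medians ran from 22.1 to 23.4 units. The 6 probe sets for root marker genes summed to between 9126 and 11136 units on every array. At 3 d 1 of the 6 was called, OsNAS1, which encodes a nicotianamine synthase of iron uptake and was lower in LK, with a mean of 348 against 705 in CK (ratio 0.49, limma adjusted p = 0.017). The other 5 had ratios of 0.92 to 1.23. The 9 probe sets for leaf genes of photosynthesis, which are defining markers of green tissue, were not at 0. Their sum ran from 2667 to 3709 units in CK and from 3644 to 4532 in LK at 6 h. It ran from 5725 to 7885 in CK and 6472 to 8472 in LK at 3 d, and from 6978 to 8164 in CK and 8696 to 10371 in LK at 5 d. These ranges overlapped between the treatments at 6 h and 3 d. At 5 d, a time that the rule also used, every LK array lay above every CK array. The part of green tissue in the values below was not tested. In bulk roots, fewer cells of a type and less RNA per cell cannot be told apart. A gene was listed for 24 of the 37 members, 24 different genes in all, and none was listed for the other 13, which are called by their probe set. Probe sets whose name ends in s_at or x_at can bind several transcripts. They made up 10 of the 37 members (27.0%) and 17.4% of the whole array. The 24 genes lie on 9 nuclear chromosomes and the plastid genome, and no 2 of them are neighbours, the closest pair being 128 genes apart in the RefSeq order of chromosome 10.

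A 5 d ratio between 0.83 and 1.2 was the exception among rises of this size. Of 656 probe sets that met the same conditions at 3 d, 597 (91.0%) had a ratio above 1.2 at 5 d as well, and 4 had one under 0.83. The 37 members were 5.64% of the 656. A further 18 had a 5 d ratio inside these limits and only the 6 h ratio outside them. The change of the ratio from 3 d to 5 d was not tested. Their LK/CK ratio at 3 d had a median of 1.499 and ran from 1.401 to 3.48, with 21 members under 1.5 and 3 at 2 or more. The median ratio was 1.05 at 6 h (0.845 to 1.199) and 1.09 at 5 d (0.845 to 1.199), and 28 of the 37 were above 1 at 5 d. LK means at 3 d ran from 125 to 8168 units, with a median of 369. The gap between the lowest LK and the highest CK array at 3 d was often narrow: it was less than 1.1-fold in 10 members, and its median was 1.24-fold.

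**Figure D1:**
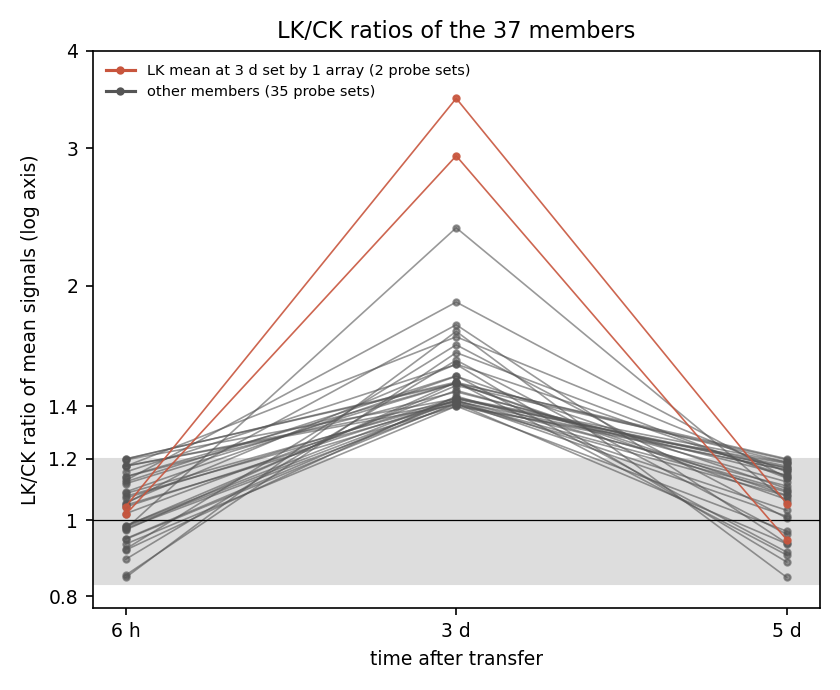
LK/CK ratio of mean signals (log axis) of each member at 6 h, 3 d and 5 d; each line is 1 probe set, and the grey band is the window of 0.83 to 1.2 that the rule set at 6 h and 5 d. The highest points at 3 d, 3.48 and 2.93, belong to the 2 members whose LK mean was set by 1 array.

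The edges of the group were not separated from their neighbours. The smallest ratios inside were those of LOC4340988 (1.41), OsAffx.20923.1.S1_at (1.401) and PDC2 (1.401), with LK and CK means of 461 and 328, 132 and 94.2, and 433 and 309 units. Just outside, with every other condition met, lay Os.2371.1.S1_at at 1.395 (341 against 244), OsAffx.27265.1.S1_at at 1.389 (117 against 84.5) and Os.48418.1.S1_at at 1.388 (125 against 90.3). OsCIPK02, which encodes a kinase that acts with calcineurin B-like calcium sensors, had a ratio of 1.42 at 3 d (1101 against 774) and was left out because its 5 d ratio was 1.204.

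The 2 largest ratios rested on 1 array. OsNDPK1 (LOC4343275, chromosome 7) read 2158, 2378 and 2197 on the CK arrays at 3 d and 2707, 2389 and 18303 on the LK arrays. The first 2 of these LK readings were close to the arrays at 6 h and 5 d, which read between 2133 and 2656, whereas replicate 3 was 6.76 times the next highest. LOC4343620, a gene without a name on the same chromosome, read 2578, 2891 and 2885 in CK and 2973, 2891 and 18639.7 in LK at 3 d, with the same array far above the rest. Its lowest LK reading exceeded its highest CK reading by less than 1 unit. If the LK array of replicate 3 was left out at 3 d, the ratios fell from 3.48 to 1.14 for OsNDPK1 and from 2.93 to 1.05 for LOC4343620, and neither met the rule. Among the 25165 probe sets with the highest mean signals, 5 had 1 array at 15000 units or more and at least 5 times the next array, all 5 on arrays of replicate 3, and 2 of them were these members on this array. The ratios of the other 35 members at 3 d ran from 1.401 to 2.37, with a median of 1.49.

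PDC2 (LOC4332519, chromosome 3) was higher in LK roots at 3 d on a level that was itself above that at 6 h in both treatments. Signals of the CK arrays were 259.6, 219.8 and 216 at 6 h, 286, 349.9 and 292 at 3 d and 404, 292 and 252 at 5 d. Those of the LK arrays were 272, 253 and 203 at 6 h, 476, 392 and 429.9 at 3 d and 383, 354 and 385 at 5 d. The 3 LK arrays at 3 d lay above every LK array at 6 h and 5 d, and replicate 1 of CK at 5 d overlapped with them. The means were 433 ± 42.2 in LK against 309 ± 35.5 in CK at 3 d (SD, n = 3), a ratio of 1.401 (log2 difference 0.49 ± 0.14, SE). A second PDC2 probe set, Os.10803.1.S2_at, was brighter, with 2085 ± 111 units in CK and 2572 ± 95.0 in LK at 3 d (SD, n = 3). Its ratio was 1.23 at 3 d and 1.25 at 5 d, so it did not show a rise limited to 3 d. The probe sets of other genes with an ADH or PDC symbol, chosen after their values had been seen, were set beside it. Adh2, an alcohol dehydrogenase that turns acetaldehyde into ethanol, went from 2598 to 3319 units at 3 d (ratio 1.28) and had a ratio of 1.23 at 5 d. PDC1 and PDC3, which encode further pyruvate decarboxylases, were low, with no group mean above 48.1. That was the mean of PDC1 in LK at 5 d, against 23.4 in CK (ratio 2.05), with arrays that did not overlap. PDC3 had a ratio of 0.74 at 5 d, and its arrays overlapped. Neither was among the probe sets tested.

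OsAAH (LOC4341777, chromosome 6) was lower at 3 d than at the other times in both treatments, and more so in CK. CK readings were 617, 526 and 492 at 6 h, 378, 336 and 391 at 3 d and 527, 447 and 513 at 5 d. LK readings were 587, 652 and 620.5 at 6 h, 552, 534 and 529 at 3 d and 588, 556 and 556 at 5 d. All 3 CK arrays at 3 d lay below all other arrays of either treatment, and the LK arrays at 3 d lay below the LK arrays of the other times by a smaller margin. The means were 538 ± 11.9 in LK against 368 ± 28.9 in CK at 3 d (SD, n = 3), a ratio of 1.46 (log2 difference 0.55 ± 0.08, SE). The ratio was 1.14 at 6 h, where the arrays overlapped, and 1.14 at 5 d, where every LK array lay above every CK array. UAH and OsALN, other genes of this pathway also chosen after their values had been seen, had ratios nearer to 1 or below it. UAH, which encodes the ureidoglycolate amidohydrolase acting later, had a ratio of 1.13 at 3 d (958 in LK against 848 in CK). Every LK array of UAH lay above every CK array at 3 d (limma adjusted p = 0.049), and its 5 d ratio was 1.04. OsALN, which encodes the allantoinase acting before OsAAH, had a ratio of 0.86 at 3 d (40.0 in LK against 46.3 in CK). Every LK array of OsALN lay below every CK array, and it was not called (limma adjusted p = 0.18).

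MHX1 (LOC4351058, chromosome 11) was lower at 3 d and 5 d than at 6 h in both treatments, and CK was below LK at 3 d. The CK arrays read 468, 319 and 373 at 6 h, 288, 254 and 237 at 3 d and 270.0, 313 and 285 at 5 d. The LK arrays read 517, 408 and 435 at 6 h, 376, 355 and 375 at 3 d and 324, 293 and 262 at 5 d. At 3 d the CK and LK arrays did not overlap, whereas they overlapped at 6 h and at 5 d. The means were 369 ± 11.8 in LK against 259.7 ± 25.7 in CK at 3 d (SD, n = 3), a ratio of 1.42 (log2 difference 0.51 ± 0.12, SE). The other MHX1 probe set, Os.38169.1.S1_a_at, read 338, 293 and 236 in CK and 359, 333 and 390.3 in LK at 3 d. Its mean ratio was 1.25 and its arrays overlapped.

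The signal of atpI (OsAffx.22955.1.S1_x_at) varied widely among the LK arrays at 3 d. Signals of the CK arrays were 821, 887 and 1023 at 6 h, 824, 730.0 and 921 at 3 d and 1410.0, 1327 and 887 at 5 d. Those of the LK arrays were 1046, 1101 and 898 at 6 h, 1553, 1223 and 935 at 3 d and 1305, 1424 and 1173 at 5 d. The lowest LK array at 3 d was 1.015 times the highest CK array. The means were 1237 ± 309 in LK against 825 ± 95.4 in CK at 3 d (SD, n = 3), a ratio of 1.499, and the ratio without replicate 1 of LK was 1.31. Among probe sets with 1 listed gene, this was the only one of a plastid gene. A further 3 members followed atpI from array to array, a group picked after the values had been seen. LOC107278854 (Os.46437.1.S1_s_at, chromosome 9) read 318, 288 and 359.7 in CK and 639, 513 and 378 in LK at 3 d, and Os.46135.1.S1_s_at read 1364, 1198 and 1317 in CK and 2853, 1455 and 1506 in LK. Os.46645.1.S1_at read 218, 244 and 315 in CK and 508, 349 and 332 in LK. In all 4 probe sets replicate 1 was the highest of the LK arrays at 3 d, and among the CK arrays at 5 d replicate 1 was the highest and replicate 3 the lowest. Their deviations from the group means on the log2 scale correlated with those of atpI at r = 0.92, 0.79 and 0.76 over the same 18 arrays, whereas the median over all 666 pairs of members was 0.04. Points that share an array also share its RNA, its labelling and its scaling. Without replicate 1 the LK/CK ratio at 3 d of Os.46135.1.S1_s_at was 1.146 instead of 1.499, that of LOC107278854 1.38 instead of 1.58 and that of Os.46645.1.S1_at 1.31 instead of 1.53.

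The remaining members have no gene name, and they differed in which treatment departed from its level at the other times. In 14 members, PDC2 among them, every LK array at 3 d lay above every LK array at 6 h and 5 d (37.8%, against 4.45% of the 25165 probe sets), and in 6, OsAAH among them, every CK array at 3 d lay below every CK array at 6 h and 5 d (16.2%, against 6.88%). These counts use the arrays that chose the members and are a description. No member did both, and 17 did neither. Among the 619 rises of the same size outside the windows, 113 (18.3%) were of the first kind and 62 (10.02%) of the second. By means, 23 of the 37 members had their lowest CK level at 3 d and 24 their highest LK level (62.2% and 64.9%), against 194 and 267 of the other 619 rises (31.3% and 43.1%). The median CK level at 3 d was 0.16 below that of the other times on the log2 scale in the members (-0.16) and 0.02 below in the other rises (-0.02), while the median LK level was above by 0.31 and 0.27. In 16 of the 37 members the CK roots departed further from the other times than the LK roots did, as in 227 of the other 619. The rule keeps a member's LK/CK ratio higher at 3 d than at 6 h and 5 d. That requires LK to be higher or CK lower at 3 d than at the other times. The other 619 were not held to it, and 597 of the 656 rises had a 5 d ratio above 1.2. The larger shares and median shifts of the members therefore follow at least in part from the selection.

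**Figure D2:**
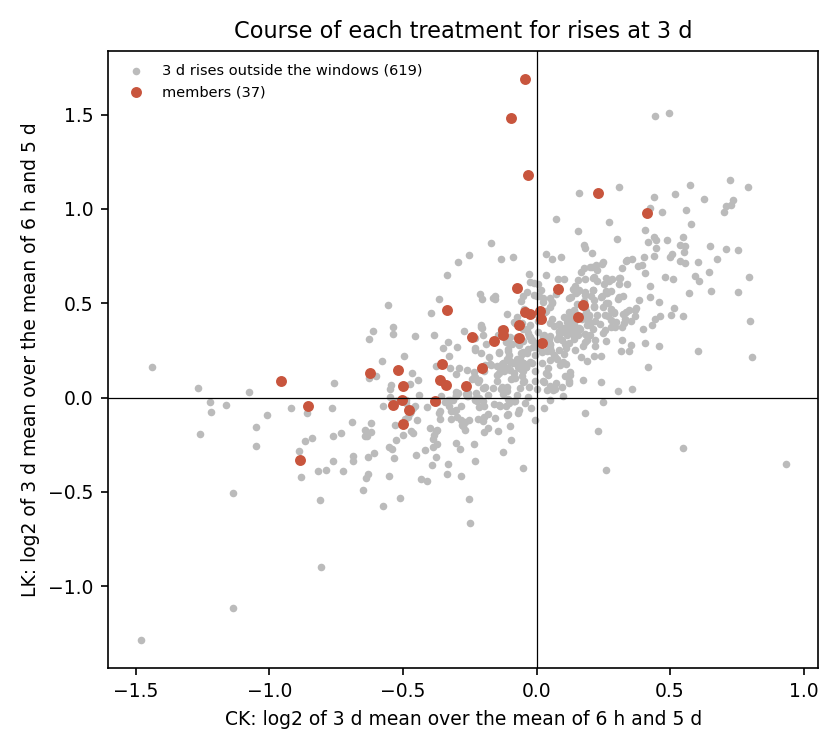
For each probe set that rose by the rule's size at 3 d, the log2 of the 3 d mean over the mean of 6 h and 5 d in CK roots (x axis) and in LK roots (y axis); red points are the 37 members and grey points the other 619. Members spread from the upper middle, where LK was higher at 3 d and CK near 0, to the left, where CK was lower at 3 d, with median values of -0.16 in CK and 0.31 in LK.

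LOC4339232 (Os.53020.1.S1_at, chromosome 5) had the largest ratio that did not rest on a single array. CK readings were 56.0, 46.0 and 32.9 at 6 h, 39.6, 62.4 and 69.8 at 3 d and 70.8, 70.8 and 74.4 at 5 d. LK readings were 40.7, 46.4 and 44.4 at 6 h, 149, 122 and 137 at 3 d and 85.4, 77.5 and 65.4 at 5 d. The 3 LK arrays at 3 d were the highest of the 18. The means were 136 ± 13.4 in LK against 57.3 ± 15.7 in CK at 3 d (SD, n = 3), a ratio of 2.37 (log2 difference 1.28 ± 0.19, SE). LOC4349395 (Os.55386.1.A1_at, chromosome 10) had a ratio of 1.78, with 218, 343 and 315 in CK and 449, 433 and 679 in LK at 3 d. Replicate 3 of LK stood 1.51 times above the next, and the ratio without it was 1.51. All LK readings of this gene at 6 h and 5 d were 291 or less. LOC4340438 (Os.53177.1.S1_s_at, chromosome 6) was lower at 3 d than at 6 h in CK, and at 3 d the LK arrays were above that level. The CK arrays read 137, 119 and 117 at 6 h, 80.5, 82.2 and 86.2 at 3 d and 94.3, 79.1 and 81.9 at 5 d. The LK arrays read 112, 119 and 102 at 6 h, 149, 121 and 129 at 3 d and 80.8, 79.8 and 84.5 at 5 d. The means were 133 ± 14.4 in LK against 82.9 ± 2.93 in CK at 3 d (SD, n = 3), a ratio of 1.605 (log2 difference 0.68 ± 0.10, SE). Its other probe set, Os.53177.1.S1_at, was dimmer and had a larger ratio at 3 d, with 44.4, 42.3 and 50.6 in CK and 104, 78.4 and 94.6 in LK, a ratio of 2.02, against 0.80 at 6 h and 1.097 at 5 d. Both probe sets of this gene thus read higher LK than CK arrays at 3 d, in the same RNA samples. Their courses were not the same throughout. The 6 h ratio of Os.53177.1.S1_at lay outside the window, and its lowest LK array at 3 d, at 78.4, was below its highest LK array at 6 h, at 79.9.

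The other 10 members whose LK arrays peaked at 3 d had smaller ratios, from 1.41 to 1.504. LOC4325091 (Os.12640.1.S1_at, chromosome 1), described in the study's array annotation as a putative receptor protein kinase, read 207, 190.5 and 182 in CK and 284, 257 and 278 in LK at 3 d, and no array at the other times exceeded 245. LOC4333806 (Os.7928.1.S1_at, chromosome 3) was among the tightest, with 389, 389 and 383 in CK and 528, 569.9 and 566 in LK at 3 d. Its ratios at 6 h and 5 d, 1.196 and 1.17, were close to the upper limit of the window. Its CK and LK arrays did not overlap at 6 h or 5 d either. At 5 d every LK array also lay above every CK array in OsAAH, LOC4327388, LOC4340988, LOC4349284, Os.7392.2.S1_x_at, OsAffx.24073.1.S1_at and OsAffx.2569.1.S1_s_at. In OsAffx.2593.1.S1_s_at every LK array lay below every CK array at 5 d. LOC4330324 (Os.7028.1.S1_at, chromosome 2) had 1579 ± 117 in LK against 1075 ± 166 in CK at 3 d (SD, n = 3), and Os.10126.1.S1_at, the brightest of the 10, had 1898 ± 89.6 in LK against 1331 ± 76.4 in CK at 3 d (SD, n = 3). LOC4339609 (Os.35463.1.S1_at, chromosome 5) had 297 ± 11.7 in LK against 211 ± 19.0 in CK at 3 d (SD, n = 3), and LOC4349284 (Os.46896.1.S1_at, chromosome 10) had 579.6 ± 41.3 in LK against 407 ± 63.2 in CK at 3 d (SD, n = 3). OsAffx.2593.1.S1_s_at averaged 231 in LK at 3 d and was also higher in CK at 3 d and 5 d than at 6 h, LOC4338424 (Os.51741.1.S1_at, chromosome 5) averaged 266, LOC4344114 (Os.28679.1.S1_at, chromosome 7) 163 and OsAffx.24073.1.S1_at 184.

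Of the 6 members with lower CK arrays at 3 d, LOC4324873 and LOC9269224 had the lowest CK means relative to the other times. LOC4324873 (Os.11975.2.A1_at, chromosome 1) read 724, 769 and 866 in CK at 6 h, 496, 312 and 274 at 3 d and 678, 605 and 559.8 at 5 d, while the LK arrays read 713, 588 and 692 at 6 h, 564, 706 and 621 at 3 d and 366, 564 and 628 at 5 d. Its ratio was 1.75 at 3 d and 0.85 at both other times, with LK below CK there. LOC9269224 (Os.46470.1.S1_at, chromosome 10) was lower at 3 d than at 6 h in both treatments, with 152, 158 and 173 in CK and 308, 197 and 235 in LK at 3 d after means of 372 and 417 at 6 h. LOC4325318 (Os.35061.1.S1_at, chromosome 1) had 827 ± 61.8 in LK against 582 ± 26.9 in CK at 3 d (SD, n = 3), a ratio of 1.42. Another probe set of LOC4325318, Os.21300.2.S1_at, read 432, 509.5 and 517 in CK and 637, 677 and 617 in LK, a ratio of 1.32, and had ratios of 0.95 and 1.154 at 6 h and 5 d. Os.7392.2.S1_x_at and OsAffx.24454.2.S1_x_at, with ratios of 1.44 and 1.41, had CK means of 138 and 88.5 at 3 d, below all other group means of those probe sets.

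Of the 17 members with neither course, 7 are described above, and 7 of the other 10 changed between 6 h and 5 d by the test given further on. Os.9762.2.S1_at was lower at each later time. Signals of the CK arrays were 193, 137 and 142 at 6 h, 53.5, 76.3 and 73.2 at 3 d and 46.5, 56.5 and 50.9 at 5 d. Those of the LK arrays were 160.3, 219 and 152 at 6 h, 115, 142 and 129 at 3 d and 50.8, 59.6 and 64.2 at 5 d. At 3 d the LK arrays were still near the lowest 6 h arrays while the CK arrays had left that range, a ratio of 1.90 (log2 difference 0.94 ± 0.17, SE). Os.51554.1.S1_at read 100.2, 129.7 and 92.6 in CK and 190.2, 178 and 173 in LK at 3 d, a ratio of 1.68, after 6 h means of 231 and 212, and OsAffx.2569.1.S1_s_at had 161 ± 15.6 in LK against 108 ± 3.09 in CK at 3 d (SD, n = 3), a ratio of 1.49. OsAffx.14412.2.S1_s_at was higher at each later time in CK, from 6 h means of 98.2 in CK and 83.5 in LK to 3 d readings of 159, 133 and 137 in CK and 199, 273 and 233 in LK, a ratio of 1.64. LOC4327388 (Os.46024.1.S1_at, chromosome 1) had LK arrays at 1758, 1698 and 1719 at 3 d and 1733, 1761 and 1699 at 5 d, so that its LK level stayed while CK climbed from 1205 to 1482. LOC9270624 (Os.16804.1.S1_at, chromosome 10) had 605 ± 99.6 in LK against 419 ± 40.5 in CK at 3 d (SD, n = 3). LOC4350534 (Os.22485.1.A1_at, chromosome 11) read 141, 168 and 141 in CK and 261, 267 and 246 in LK at 3 d, a ratio of 1.72, with 1 of the LK arrays at 5 d, at 252, inside the range of the LK arrays at 3 d. LOC4340988 (Os.11724.2.S2_s_at, chromosome 6) had 461 ± 39.5 in LK against 328 ± 23.3 in CK at 3 d (SD, n = 3). The other probe set of LOC4340988, Os.11724.2.S1_s_at, was dimmer, with means of 68.8 in LK against 65.6 in CK at 3 d. Its ratio was 1.05 and its arrays overlapped, so it did not show the rise. In Os.46372.1.A1_at and OsAffx.20923.1.S1_at the LK arrays at 3 d, 167, 155 and 119 and 124, 159.8 and 112, lay within the range of the arrays at other times or close to it.

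**Figure D3:**
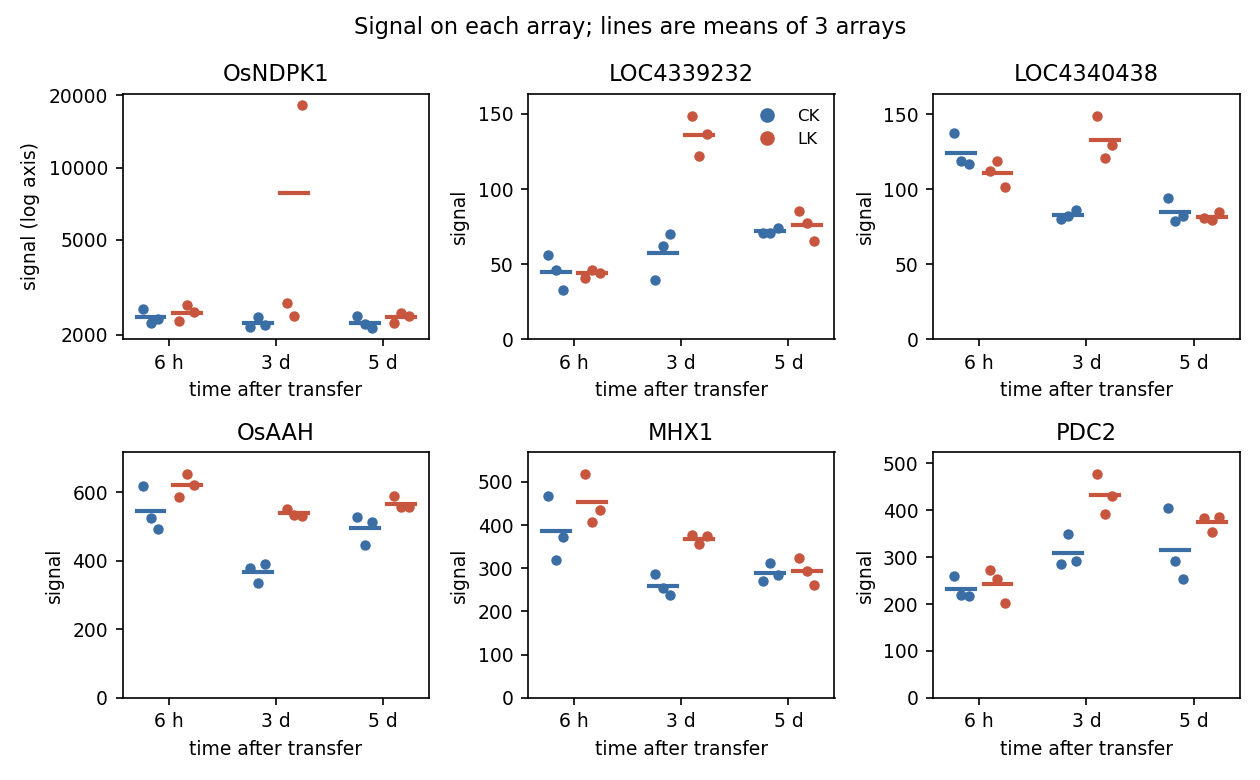
Signal of 6 members on each of the 18 arrays, with CK in blue and LK in red at 6 h, 3 d and 5 d; horizontal lines are means of 3 arrays, and the OsNDPK1 panel has a log axis. The LK mean of OsNDPK1 at 3 d lies between 1 array at 18303 and the other 2 near the CK level, whereas in the other panels the 3 LK arrays at 3 d stand together above the 3 CK arrays.

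The change from 6 h to 5 d does not enter the rule, which compared neither treatment between times, and it could be tested with limma over the 25165 probe sets. Averaged over CK and LK, 12 of the 37 members (32.4%) were higher at 5 d and 7 (18.9%) were lower at an adjusted p under 0.05, against 19.0% and 13.9% of all probe sets tested. In CK alone 8 were higher and 6 lower (21.6% and 16.2%, against 9.94% and 6.85%), and in LK alone 11 and 6 (29.7% and 16.2%, against 15.7% and 13.5%). The windows at 6 h and 5 d limit how far the CK and LK changes of a member can differ, so the 2 treatments are not separate evidence of a change. The median change was near 0, at 0.08 on the log2 scale for the members and 0.03 for all probe sets. The members thus did not share a direction over time. The largest increases were those of OsAffx.14412.2.S1_s_at, with an average log2 change of 1.26 ± 0.14 (SE, limma adjusted p = 1.8e-06), and LOC4327388, with 0.87 ± 0.04 (limma adjusted p = 1.7e-11). PDC2 increased by 0.53 ± 0.10 (limma adjusted p = 6.5e-04) and atpI by 0.37 ± 0.12 (limma adjusted p = 0.026). The largest decrease was that of Os.9762.2.S1_at, with -1.60 ± 0.12 (limma adjusted p = 1.3e-08), followed by LOC9269224 with -0.87 ± 0.11 (limma adjusted p = 7.9e-06). MHX1 decreased, with -0.52 ± 0.09 (limma adjusted p = 1.8e-04). OsAAH, at -0.13 ± 0.06 (limma adjusted p = 0.099), and OsNDPK1, at -0.07 ± 0.33 (limma adjusted p = 0.90), did not pass the test. The spread that limma used for OsNDPK1 includes its single high array.

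**Figure D4:**
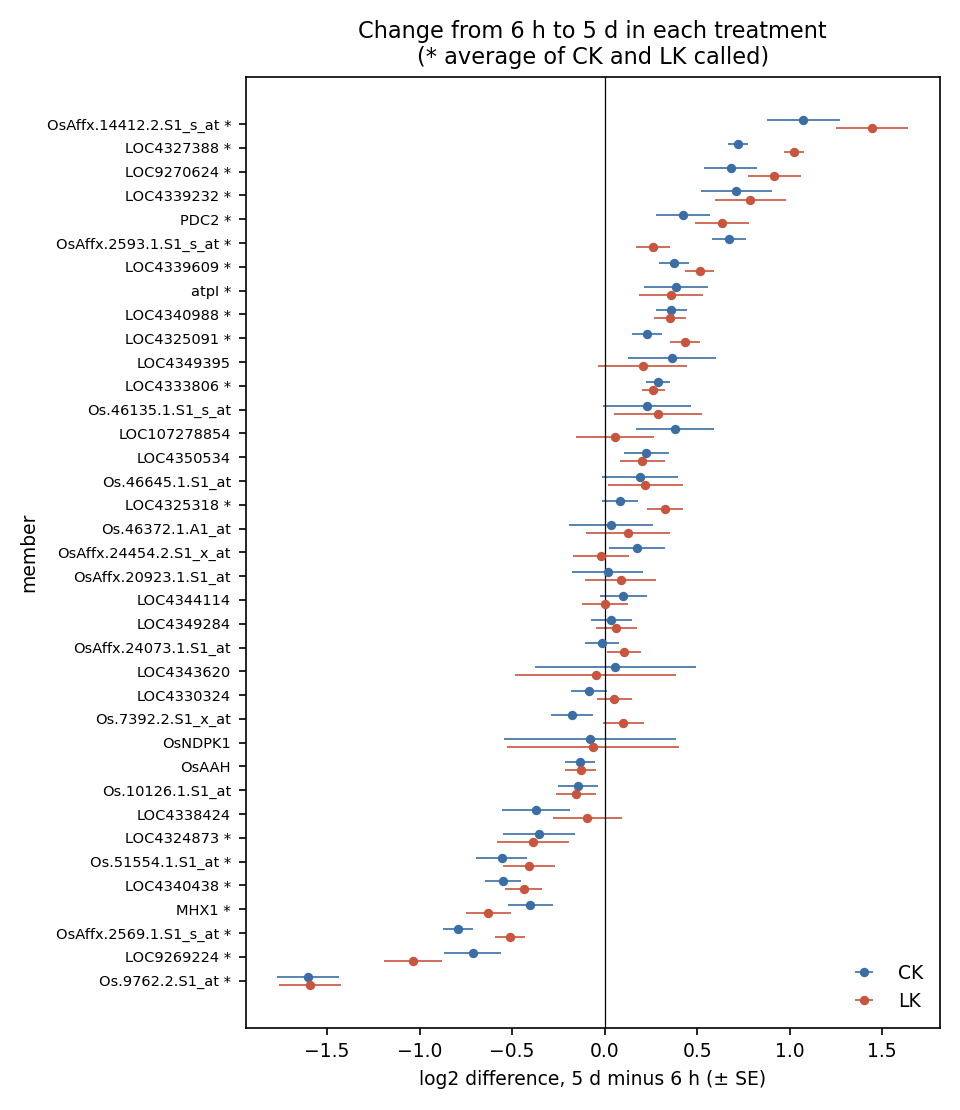
Log2 difference between 5 d and 6 h for each member in CK (blue) and LK (red) roots, with the standard error from limma; an asterisk marks the 19 members called for the average of both treatments. Values run from -1.60 to 1.07 in CK and from -1.59 to 1.44 in LK, and members lie on both sides of 0.

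The contrasts that the rule used were also fitted, and their counts are given without being read as support. At 3 d 30 of the 37 members passed the test as higher in LK, where 8.50% of all probe sets did. At 6 h none was called in either direction, against 0.270% higher and 0.258% lower among all probe sets, and at 5 d 3 members were called higher and none lower, against 10.5% and 12.8% of all probe sets. No member was in any of 25 gene lists, which says little, since the lists match by symbol, only 5 members have one and the transporter list does not cover that of MHX1. Among the 109 probe sets of ion and nutrient transporters kept, 13 were higher and 20 lower in LK at 3 d, with a median log2 difference of 0.01, and among the 79 of calcium signalling kinases 10 were higher and 7 lower, with a median of 0.07. Of all probe sets tested, 8.50% were higher and 5.75% lower at 3 d, with a median of 0.04.

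Membership depended on thresholds, scaling and single arrays. After quantile normalization 19 of the 37 probe sets still met the rule, and after centring each array on its median 18 did. Under both, 14 members fell below a ratio of 1.4 at 3 d, and the lowest ratios became 1.35 and 1.36. Without its highest LK array at 3 d, a member kept a ratio of 1.4 or more in 18 of 37 cases. Leaving out replicate 2 or replicate 3 of CK at 3 d gave 64 and 80 probe sets that met the rule, leaving out replicate 2 of LK at 3 d gave 70, and leaving out replicate 2 of CK at 5 d gave 57. LOC4339232, LOC4340438 and Os.51554.1.S1_at were the only members that met the rule under both rescalings, with geometric means and without any 1 of the 18 arrays.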

How the data were processed

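RNA from rice roots was hybridised to the Affymetrix Rice Genome Array. Per the labels and the study's methods, the authors scanned the arrays with GCOS 1.0 and MAS5 and normalized the 18 arrays together in dChip. The deposited values are signal intensities on a linear scale, 1 per probe set and array; the dChip probe model and detection calls are not given in the sources used here. Such a common scaling sets what counts as unchanged, so other scalings were tried. Of 57194 probe sets, 22436 had 1 gene in the platform annotation, all matched to the RefSeq table, 95 had several and 34663 had none listed.

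The members and gene lists were chosen with earlier results of these data known. Ratios are of mean linear signals. For tests, signals were floored at 10, log2 transformed, and 25165 probe sets were kept, the top 44% by mean log2 signal. A 6-group model was fitted with limma 3.58.1 in R 4.3.3 (lmFit, eBayes with an intensity trend, 12 residual degrees of freedom) with Benjamini-Hochberg adjustment over the kept probe sets. The script was tested on simulated data. Named members were those with a gene symbol, the 10 largest and the 3 smallest ratios, and the nearest 3 probe sets outside; the others were described to account for every member. Replicate numbers were not taken as pairs, and whether same-numbered samples were linked was not settled. The array number limits the precision. No sequence was examined, and no genome coordinates are given.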

Additional observations from a re-analysis of the deposited data

How the results depend on the processing

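The number of probe sets that met the rule was 37. It was 19 with quantile normalization and 18 with median centring, 126 and 16 with a 3 d ratio of at least 1.3 and 1.5, 12 and 104 with windows of 0.9 to 1.1 and 0.77 to 1.3, and 60 with a lowest LK mean of 50. Ratios of geometric means gave 32, of which 31 were members, and an LK mean of 200 gave 26. Leaving out 1 array at a time gave 30 to 80 probe sets. It was 80 without replicate 3 of CK at 3 d, 70 without replicate 2 of LK at 3 d, 64 without replicate 2 of CK at 3 d and 57 without replicate 2 of CK at 5 d, with 29, 34, 36 and 34 of the 37 members among them. With 1 array fewer at 3 d, fewer arrays have to stand apart; the cause was not tested further. The counts of members that changed from 6 h to 5 d stayed within 1.5 times of the main count under every alternative: for the average of CK and LK, 10 to 13 were higher and 6 to 8 lower across scalings, filters, floors and fits, and 10 to 15 and 6 to 9 without 1 array. Same-numbered CK and LK arrays of a time deviated together with correlations of -0.09 to 0.26 (4 of 9 pairs over 0.1), and same-numbered 6 h and 5 d arrays of a treatment with 0.07 to 0.50 (4 of 6 over 0.1). Not every pair was over 0.1, so the numbers were not taken as pairs. With the replicate number as a block, 13 members were higher and 6 lower for the average, 10 and 6 in CK and 11 and 6 in LK. Leaving out each of the 6 arrays at 3 d, an alternative chosen after seeing the data, gave 14 to 17 members with higher LK arrays and 6 to 9 with lower CK arrays at 3 d.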
